A study of Homo sapiens with 4 samples.

Results

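The respiratory chain genes described here are the 80 of the 33694 listed genes whose symbols match the naming patterns of its subunits. Mitochondrial DNA encodes 13 of them, with the prefixes MT-ND, MT-CO, MT-ATP and MT-CYB. The other 67 are nuclear, and their symbols are NDUFA, NDUFB, NDUFC, NDUFS or NDUFV followed by a number, SDHA to SDHD, or begin with UQCR or with COX4 to COX8. The patterns use symbols only and no measured value, but they were chosen with earlier results of these data known. The patterns leave out some subunits with other names, such as *CYC1* and *NDUFAB1*. By complex, the mitochondrially encoded genes comprise 7 of complex I, 1 of complex III, 3 of complex IV and 2 of complex V, and the nuclear genes comprise 37 of complex I, 4 of complex II, 9 of complex III and 17 of complex IV.

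The respiratory chain sits in the inner mitochondrial membrane. Complex I (NADH dehydrogenase) and complex II (succinate dehydrogenase, which is also an enzyme of the tricarboxylic acid cycle) pass electrons to ubiquinone, complex III (the cytochrome bc1 complex) passes them on to cytochrome c, and complex IV (cytochrome c oxidase) hands them to oxygen. Complexes I, III and IV pump protons that drive the ATP synthase, complex V. All of these except complex II are built from subunits of both genomes, and the mitochondrial messages are cut from long transcripts of both strands of a circular genome, in a compartment separate from nuclear transcription.

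The libraries came from OVCA420, a human epithelial ovarian cancer line, profiled by droplet-based 3′ single-cell RNA-seq. Untreated cells (Ctrl) were compared with cells given 10 ng/mL TGF-β1, a cytokine used to induce epithelial-mesenchymal transition (EMT), for 1 day, 3 days or 7 days, with TGF-β1 renewed during the longer treatments, cells passaged as needed, and all cultures timed so that they were collected together. Each condition was 1 library of 1 cell line, so that no test between conditions was possible, no p-value is given, and differences between libraries and differences between conditions cannot be told apart. Intervals are 95% counting intervals and cover counting error only.

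With a limit of 20% of unique molecular identifiers (UMIs) on MT- genes, 933 Ctrl, 937 1-day, 705 3-day and 569 7-day cells were retained, and 26 cells were removed. The retained cells held between 25382817 and 32949874 UMIs per library, with a median per cell of 30270, 32393, 43553 and 43382 UMIs. Here and below, 4 values in a row stand for Ctrl, 1-day, 3-day and 7-day, and 3 values in a row stand for 1-day, 3-day and 7-day. Levels are given as CPM, in which the UMIs of a gene are scaled to a library total of 1000000 UMIs, and differences as log2 ratios of CPM to Ctrl. Between 1 and 7 cell barcodes were shared by any pair of libraries. The epithelial label of the line was matched by *EPCAM*, at 297 to 361 CPM, and *KRT18*, at 841 to 1698 CPM, while the keratin gene *KRT19* was at 1178, 989.5, 519 and 581 CPM and *MUC16*, the gene of the CA-125 antigen, was at 2.97, 0.425, 0.124 and 0.197 CPM. The 8 markers of leukocytes, endothelium and fibroblasts summed to 4.31 to 8.37 CPM, of which the endothelial gene *CDH5* gave 5.37, 0.395, 0.218 and 0.315 CPM and the macrophage marker *CD68* 1.53, 3.00, 4.73 and 6.19 CPM, and the leukocyte marker *PTPRC* had 2 UMIs in Ctrl and 0 in the treated libraries. Cell cycle phase differed between the libraries, with 25.8%, 78.0%, 47.7% and 37.4% of cells assigned to G1.

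The sequences below are shown for some members with high or low ratios to Ctrl, and several members not shown lay farther from Ctrl than *NDUFB4*. *MT-ATP8* and *MT-ND4L*, which together with *MT-ND6* had the lowest ratios to Ctrl among the mitochondrially encoded genes, each share bases with the gene that follows on the same message. Capitals mark the 46 bases shared by *MT-ATP8* and *MT-ATP6* (chrM:8507-8592, + strand, hg38) and the 7 bases shared by *MT-ND4L* and *MT-ND4* (chrM:10740-10786, + strand, hg38), and these bases alone do not tell the genes of a pair apart.
MT-ATP8 and MT-ATP6: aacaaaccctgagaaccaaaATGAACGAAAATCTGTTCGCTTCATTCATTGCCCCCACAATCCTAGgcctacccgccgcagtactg
MT-ND4L and MT-ND4: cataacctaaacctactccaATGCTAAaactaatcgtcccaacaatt

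For the nuclear genes, the promoters shown are those of *NDUFA7*, the lowest nuclear member at 7-day, *SDHA*, which with *UQCRHL* was the highest at 7-day among members of at least 10 CPM, *UQCRC1*, the highest at 1-day, and *NDUFB4*, the highest of complex I at 1-day. They are RefSeq promoters on GRCh38.p14, from 250 bases before to 50 bases after the annotated start, at chr19:8321326-8321625 (- strand), chr5:218070-218369 (+ strand), chr3:48609597-48609896 (- strand) and chr3:120596086-120596385 (+ strand), in that order. Capitals mark matches, on either strand, to GCGCA and GCGC with 1 base of any kind between them, the motif of NRF1, a transcription factor known for its sites in promoters of respiratory chain genes, and to AANATGGCG, the motif of YY1.
NDUFA7: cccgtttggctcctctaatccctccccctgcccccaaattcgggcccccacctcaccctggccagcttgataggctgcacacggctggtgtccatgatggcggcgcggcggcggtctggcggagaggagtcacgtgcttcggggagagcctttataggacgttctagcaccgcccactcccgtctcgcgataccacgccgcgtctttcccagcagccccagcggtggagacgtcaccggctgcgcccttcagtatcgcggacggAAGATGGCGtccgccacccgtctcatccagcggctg
SDHA: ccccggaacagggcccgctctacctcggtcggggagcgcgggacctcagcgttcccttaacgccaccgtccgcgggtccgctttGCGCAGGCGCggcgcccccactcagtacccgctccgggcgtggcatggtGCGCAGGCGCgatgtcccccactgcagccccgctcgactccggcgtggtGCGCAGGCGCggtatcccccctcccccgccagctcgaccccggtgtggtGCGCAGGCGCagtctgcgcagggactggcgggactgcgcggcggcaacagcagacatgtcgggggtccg
UQCRC1: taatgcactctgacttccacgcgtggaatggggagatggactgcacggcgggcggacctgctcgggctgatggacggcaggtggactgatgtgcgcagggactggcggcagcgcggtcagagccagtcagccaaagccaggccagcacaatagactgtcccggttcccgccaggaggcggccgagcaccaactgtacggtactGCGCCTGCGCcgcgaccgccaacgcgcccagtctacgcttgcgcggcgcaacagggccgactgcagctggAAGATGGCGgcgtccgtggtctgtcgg
NDUFB4: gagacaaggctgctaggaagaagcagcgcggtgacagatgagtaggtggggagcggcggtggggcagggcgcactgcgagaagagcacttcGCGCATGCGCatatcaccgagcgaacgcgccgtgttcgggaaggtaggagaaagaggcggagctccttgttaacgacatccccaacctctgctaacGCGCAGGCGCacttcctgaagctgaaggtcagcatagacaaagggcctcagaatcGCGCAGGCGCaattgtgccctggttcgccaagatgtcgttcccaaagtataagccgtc

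The mitochondrially encoded genes took a smaller share of the UMIs in every treated library than in Ctrl. The 13 genes summed to 8.36%, 7.62%, 6.32% and 6.40% of UMIs, which gave log2 ratios to Ctrl of -0.13, -0.40 and -0.38. The share therefore lay lowest at 3-day and 7-day, which were close to each other. The number of mitochondrially encoded UMIs per cell did not follow the share, with means of 2686, 2679, 2881 and 2856, and the cells of the later libraries held more UMIs of all genes. On that scale the log2 ratios were 0.00, 0.10 and 0.09, so the direction at 3-day and 7-day depends on whether the level is taken relative to all UMIs or per cell. With the 10% limit on MT- UMIs, which retained 796 Ctrl, 831 1-day, 686 3-day and 550 7-day cells, the log2 ratios of the share were -0.13, -0.34 and -0.32. Both limits act on the UMIs of these same 13 genes, and the 10% limit removed 137, 106, 19 and 19 further cells. Without a limit the log2 ratios of the share were -0.13, -0.40 and -0.39.

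The nuclear members behaved otherwise. Their sum was 20845, 22041, 20492 and 18281 CPM, with log2 ratios of 0.08, -0.02 and -0.19. The level at 1-day was thus the highest of the libraries, and that at 7-day was the lowest. Relative to scaling factors that centre the median gene, the 3 ratios were 0.13, -0.10 and -0.30, and with the 10% limit they were 0.07, -0.04 and -0.21. Per cell the nuclear sum was higher than in Ctrl throughout, with 670.2, 775, 934 and 816 UMIs. On that scale its log2 ratios were 0.21, 0.48 and 0.28, beside 0.13, 0.50 and 0.47 for the UMIs of all genes. For each nuclear respiratory chain UMI the cells held 4.01, 3.46, 3.08 and 3.50 mitochondrially encoded UMIs. This ratio needs no scaling of the libraries, and it was lower in each treated library than in Ctrl.

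**Figure D1:**
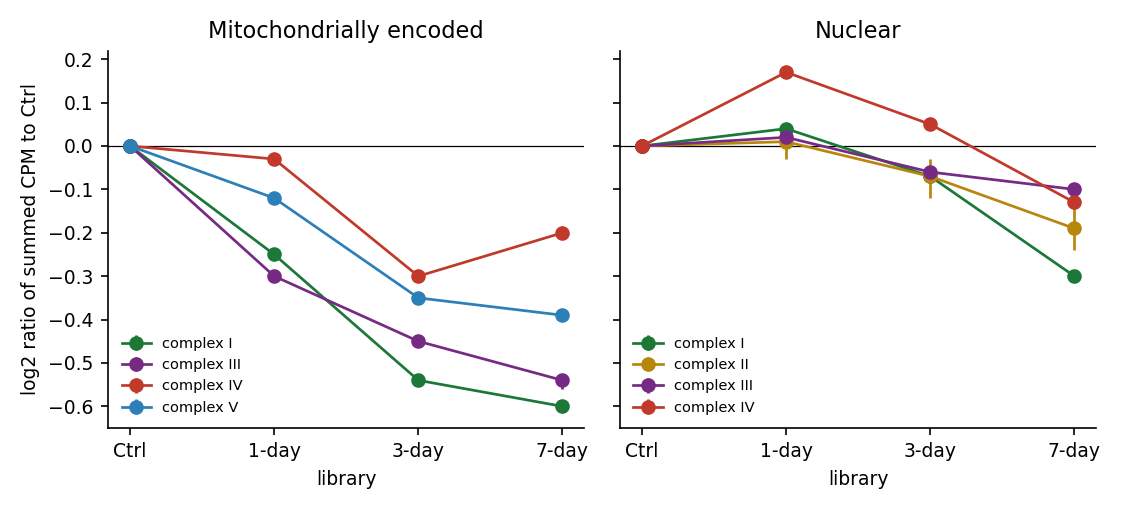
The log2 ratio to Ctrl of the summed CPM of each complex is plotted against the library (points; bars, 95% counting intervals; Ctrl is 0 by construction), with mitochondrially encoded genes on the left and nuclear genes on the right. Mitochondrially encoded complex I and III reached -0.60 and -0.54 at 7-day and complex IV -0.20, while the nuclear sums lay at or above 0 at 1-day and below 0 at 7-day.

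Within the mitochondrial genome, complex I and complex IV parted. The 7 genes of complex I summed to 34683, 29134, 23866 and 22846 CPM, with log2 ratios of -0.25, -0.54 and -0.60. The 3 genes of complex IV summed to 39496, 38802, 32144 and 34299 CPM, with log2 ratios of -0.03, -0.30 and -0.20. Complex I therefore lay farther below Ctrl than complex IV in every treated library, and with factors that centre the median gene complex IV was at 0.02 at 1-day. Complex III, which is *MT-CYB* alone (the cytochrome b subunit), was at 3596, 2923, 2631 and 2469 CPM, for log2 ratios of -0.30, -0.45 and -0.54. Complex V lay between complex III and complex IV at each time, with log2 ratios of -0.12, -0.35 and -0.39. With the 10% limit the 7-day log2 ratios of complexes I, III, IV and V were -0.54, -0.48, -0.15 and -0.32. Even per cell, UMIs of complex I were fewer at 7-day (1019) than in Ctrl (1115), whereas those of complex IV were more numerous (1530.0 against 1269.8).

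Gene by gene, a log2 ratio of at least 0.5 in size was used to name a member as higher or lower. At 1-day 3 of the 13 mitochondrially encoded members were lower and 0 higher, against 21.6% lower and 19.4% higher of the 7747 genes with a mean of at least 10 CPM. At 3-day 6 were lower and 0 higher, against 13.1% lower and 22.2% higher of all those genes. At 7-day 8 were lower and 0 higher, against 12.0% lower and 24.7% higher. The median member was at -0.32, -0.48 and -0.56 at the 3 times, and the median of all those genes at -0.04, 0.06 and 0.11.

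*MT-ND6*, *MT-ND4L* and *MT-ATP8* had the 3 lowest ratios to Ctrl at every time. *MT-ND6*, a membrane subunit of complex I and the only member read from the strand opposite to the others (chrM:14149-14673, - strand), was at 322, 146, 128 and 117 CPM. Its log2 ratios were -1.14 (-1.19 to -1.09), -1.33 (-1.38 to -1.28) and -1.47 (-1.53 to -1.41). In G1 cells alone the 1-day value of *MT-ND6* was -0.83. *MT-ND4L*, another small membrane subunit of complex I, was at 552, 306, 278 and 261 CPM, with log2 ratios of -0.85, -0.99 and -1.08. *MT-ATP8*, which encodes a short subunit of the ATP synthase, was at 78.0, 42.0, 39.7 and 28.0 CPM, with log2 ratios of -0.89, -0.97 and -1.48. The sum of these 3 genes was at -0.95, -1.09 and -1.23, and that of the other 10 at -0.13, -0.40 and -0.38. Both neighbours that share bases with them stayed nearer to Ctrl, with *MT-ATP6* at -0.11, -0.34 and -0.38 and *MT-ND4* at -0.04, -0.48 and -0.56. Since the genes of such a pair lie on the same message, their ratios describe the UMIs assigned to each gene. They are not read as levels of separate messages. *MALAT1*, an abundant nuclear non-coding RNA, moved in the same direction over the libraries, at 5519.7, 3376, 2959 and 3009 CPM, and its part in these values was not tested.

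The other mitochondrially encoded complex I genes were all below Ctrl at 7-day. *MT-ND1* was at 9061, 6821, 6132 and 5954 CPM, and *MT-ND2* was at 7945, 6352, 5343 and 4909 CPM. Both encode membrane subunits, and their 7-day log2 ratios were -0.61 and -0.69. *MT-ND3*, *MT-ND4* and *MT-ND5* ended at -0.44, -0.56 and -0.60. At 1-day *MT-ND4* stood at -0.04 (0.01 with factors that centre the median gene), and the others of these 5 genes lay between -0.41 and -0.32.

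*MT-CO1*, the catalytic subunit of cytochrome c oxidase that holds its oxygen-binding site, had the highest ratio of the 13 at every time. It was at 9631, 10669, 8788 and 9607 CPM, with log2 ratios of 0.15, -0.13 and 0.00. Its 1-day level was above Ctrl and its 7-day level within counting error of Ctrl (-0.01 to 0.00), but the sign of the latter was not settled, at 0.04 with the 10% limit and -0.11 with factors that centre the median gene. *MT-CO2*, which carries the copper centre that takes electrons from cytochrome c, was at 17920.3, 16885, 14037 and 15536 CPM, with log2 ratios of -0.09, -0.35 and -0.21. *MT-CO3* was at -0.09, -0.36 and -0.38, so that at 7-day the 3 subunits of 1 complex spanned log2 ratios from -0.38 to 0.00.

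**Figure D2:**
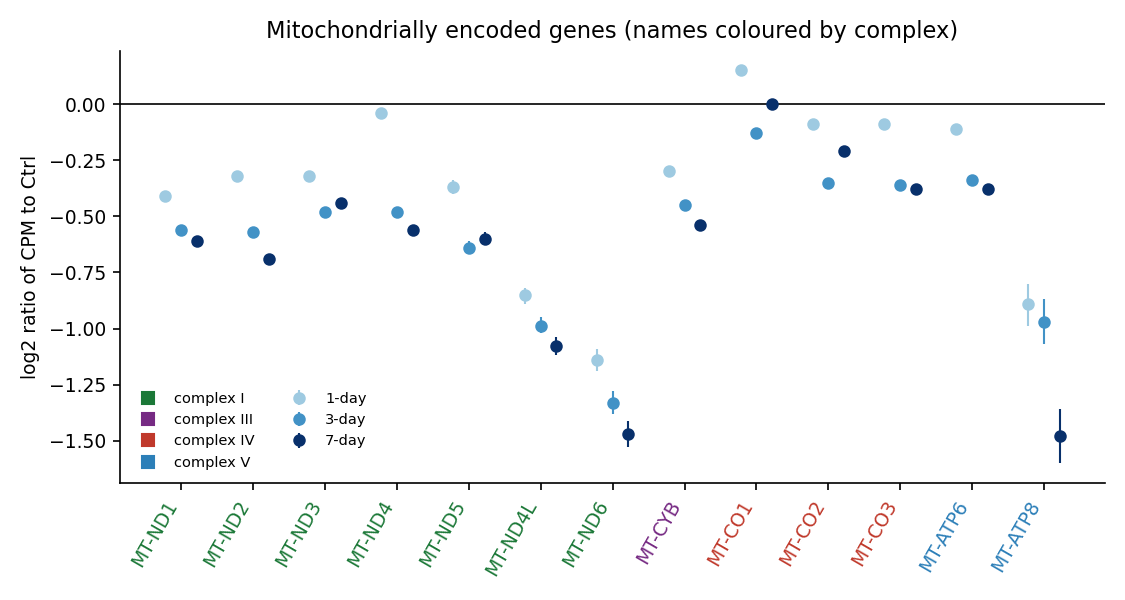
The log2 ratio to Ctrl of CPM is plotted for each of the 13 mitochondrially encoded genes (names coloured by complex) at 1, 3 and 7 days of TGF-β1 (points; bars, 95% counting intervals, shorter than the points for abundant genes). *MT-ND4L*, *MT-ND6* and *MT-ATP8* lie at -0.85 or below at every time, and *MT-CO1* lies nearest to or above 0.

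The 13 genes also differed in length and base composition, which the naming patterns did not use. *MT-ATP8* (207 bases) and *MT-ND4L* (297 bases) are the shortest of the 13, and *MT-ND6* (525 bases) has the lowest share of A on its own strand, 19.6%, against 26.8% to 38.6% in the others. The highest share of A, 38.6%, is that of *MT-ATP8*, which also had a low ratio. *MT-ND3*, at 346 bases, is shorter than *MT-ND6* and ended at -0.44. *MT-CO1*, at 1542 bases, is exceeded in length only by *MT-ND5*, at 1812 bases, which ended at -0.60. Libraries of this kind are primed on A-rich ends, and the part of length, base composition and priming in the ratios was not tested.

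Among the nuclear members, 62 of the 67 had a mean of at least 10 CPM over the libraries and were compared gene by gene. The other 5, *COX4I2*, *COX6A2*, *COX6B2*, *COX7A1* and *COX8C*, are described with the isoforms. At 1-day 2 of the 62 were higher and 0 lower, where 19.4% of all genes were higher and 21.6% lower. At 3-day 2 were higher and 3 lower, where 22.2% were higher and 13.1% lower. At 7-day 1 was higher and 15 lower, where 24.7% were higher and 12.0% lower. The median nuclear member was at 0.02, -0.11 and -0.33, beside -0.04, 0.06 and 0.11 for all genes. The 1-day and 3-day counts of nuclear members past 0.5 in size were thus below the background in both directions, and the 7-day count of lower members was the one above it. With factors that centre the median gene 26 nuclear members were lower at 7-day, where 16.1% of all genes were, and in G1 cells alone 20 were, where 18.0% of all genes were. As a mean over cells 12 were lower at 7-day, where 11.7% of all genes were, and with doublets left out 14 were, where 12.0% were. With the 10% limit 1, 2 and 0 members were higher, where 19.8%, 22.5% and 25.2% of all genes were. At that limit 0, 4 and 16 were lower, where 21.2%, 13% and 12% of all genes were. At a smaller size of 0.25, 11, 8 and 5 nuclear members were higher, where 30.3%, 36.2% and 39.3% of all genes were, and 7, 18 and 36 were lower, where 35.1%, 25.6% and 23.4% were.

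**Figure D3:**
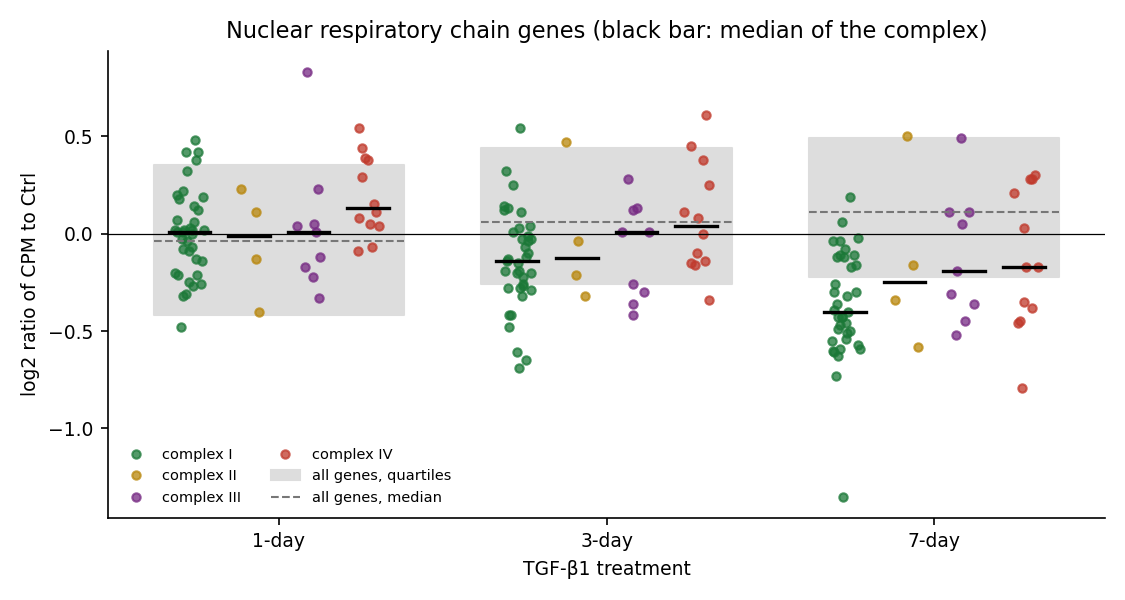
Each point is 1 of the 62 nuclear members with a mean of at least 10 CPM, placed by its log2 ratio of CPM to Ctrl at 1, 3 and 7 days and coloured by complex (black bars, median of the complex; grey band, quartiles; dashed line, median of 7747 genes). At 7-day the complex I points centre on -0.40, below the grey band, while the median of all genes is at 0.11.

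The nuclear genes of complex I, which are 37 of the 62 compared, held 12 of the 15 lower members at 7-day. Their sum was 8472, 8696, 8054 and 6887 CPM, for log2 ratios of 0.04, -0.07 and -0.30. Of the 37 genes, 12 (32.4%) were lower and 0 higher at 7-day, where 12.0% of all genes were lower and 24.7% higher. A negative ratio was found for 35 at 7-day. The share of all genes with a negative ratio was not counted, and the median of all genes was 0.11. The median gene of the 37 was at 0.01, -0.14 and -0.40. The 7 core subunits, which hold the flavin and the iron-sulphur clusters, summed to 712, 651, 601 and 561 CPM, with log2 ratios of -0.13, -0.24 and -0.34. The 29 accessory subunits summed to 6968, 7150.2, 6598 and 5728 CPM, with log2 ratios of 0.04, -0.08 and -0.28. The core thus lay below the accessory subunits at 1-day and 3-day and close to them at 7-day. *NDUFA4*, which belongs to the 37 by its name, was counted in neither set, since its protein is known to work in complex IV.

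Single core subunits differed in size and course. *NDUFV1*, the subunit that binds NADH and the flavin, was the lowest nuclear member at 1-day, at 65.8, 47.3, 40.8 and 45.3 CPM, with log2 ratios of -0.48, -0.69 and -0.54. *NDUFV2*, its partner in the same module, was at -0.27, -0.28 and -0.16. *NDUFS7*, which carries the last iron-sulphur cluster before ubiquinone, was at 0.06, -0.32 and -0.59, and *NDUFS3* at -0.20, -0.26 and -0.61. *NDUFS1* and *NDUFS8*, both iron-sulphur subunits, were at -0.46 and -0.30 at 7-day. The exons of *NDUFV1* and *NDUFS3* overlap those of another listed gene on the same strand, so their counts are uncertain.

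At 7-day the lowest and the highest gene of complex I both encoded accessory subunits. *NDUFA7* (chr19:8308768-8321375, - strand), whose promoter is printed above, was at 39.1, 31.6, 25.0 and 15.4 CPM, with log2 ratios of -0.31, -0.65 and -1.35 (-1.51 to -1.18). Its 7-day level was 0.394 times that in Ctrl, and it too overlaps another listed gene. *NDUFB4*, an accessory subunit of the membrane arm, was at 272, 379.6, 339 and 265 CPM, with log2 ratios of 0.48, 0.32 and -0.04. *NDUFS5*, an accessory subunit on the intermembrane side, was at 365, 489, 532 and 416 CPM, and at 0.42, 0.54 and 0.19 it was the highest gene of complex I at 7-day. At 7-day *NDUFB4* was thus within counting error of Ctrl (-0.09 to 0.01), whereas *NDUFS5* was still above it.

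Complex II has no mitochondrially encoded subunit, and its 4 genes split. *SDHA* (chr5:218303-257082, + strand), the flavin subunit that oxidises succinate, was at 31.0, 33.5, 43.0 and 43.9 CPM, for log2 ratios of 0.11, 0.47 and 0.50 (0.37 to 0.63). Its 7-day ratio lay within counting error of that of *UQCRHL* (0.49), which was the higher of both in G1 cells alone (0.63 against 0.49). *SDHB*, the iron-sulphur subunit, was at 91.4, 83.5, 78.8 and 72.0 CPM, and reached -0.34. *SDHD*, one of the membrane anchors, was at 52.0, 39.3, 41.5 and 34.8 CPM, and reached -0.58. The flavin subunit was thus above Ctrl at 7-day while its direct partner and both anchors were below, with *SDHC* at 0.23, -0.04 and -0.16. The exons of *SDHD* overlap those of another listed gene, and *SDHA* has near-identical pseudogene copies, between which reads may be divided or lost, so both values are uncertain. The 4 genes summed to 291, 293, 276 and 255 CPM, so that the sum was within counting error of Ctrl at 1-day (0.01; -0.03 to 0.05) and at -0.19 at 7-day.

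The largest 1-day ratio among the 62 members belonged to complex III. *UQCRC1*, a core subunit of the matrix side, was at 171, 305, 208 and 177 CPM, with log2 ratios of 0.83 (0.78 to 0.88), 0.28 and 0.05 (-0.01 to 0.11). Its level was therefore highest at 1-day, still above Ctrl at 3-day and within counting error of Ctrl at 7-day, where other scaling turned the sign (-0.06). *UQCRC2*, the other core subunit, did not share this course, at 56.1, 56.6, 45.4 and 43.7 CPM. *UQCRFS1*, the Rieske iron-sulphur protein, was at 299, 275, 232 and 208 CPM, and was the lowest of the complex at 7-day (-0.52). The nuclear sum of the complex was at 0.02, -0.06 and -0.10. *UQCRHL*, a copy of *UQCRH* without introns, was at 32.3, 25.8, 32.6 and 45.5 CPM and made up 2.37%, 1.85%, 2.21% and 3.07% of the UMIs of the pair. Since the 2 genes are near-identical, the division of reads between them is uncertain.

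The nuclear genes of complex IV summed to 7253, 8159, 7524 and 6630.2 CPM, with log2 ratios of 0.17, 0.05 (-0.02 with factors that centre the median gene) and -0.13. At 1-day 10 of the 12 compared members had a positive ratio, and the median was 0.13, where the median of all genes was -0.04. The share of all genes with a positive ratio was not counted. *COX4I1*, which binds regulatory nucleotides and is needed early in assembly, was at 654, 850.5, 893 and 795 CPM, and was still above Ctrl at 7-day (0.28). *COX6C* and *COX7A2L*, the latter known for its role in joining complexes III and IV, were also above Ctrl at each time, at 0.28 and 0.21 at 7-day. *COX6A1* was at 779, 1059.7, 843 and 599.6 CPM, and so passed from 0.44 to -0.38, with exons that overlap those of another listed gene. *COX7B* had the lowest ratio of the complex at 3-day and 7-day, at 513, 488, 405 and 296 CPM, with a 7-day log2 ratio of -0.79 (-0.83 to -0.75). *COX5A* and *COX5B*, which sit on the matrix side, reached -0.46 and -0.45 at 7-day, and *COX7C* reached -0.17. *NDUFA4* went from 792 CPM in Ctrl to 895, 855 and 598 CPM, a course like that of *COX6A1*.

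Several subunits of complex IV have a second isoform with a restricted range of tissues. *COX6B2*, known mainly from testis, had 20, 67, 245 and 171 UMIs, or 0.667, 2.03, 7.62 and 6.74 CPM, with log2 ratios of 1.61 (0.87 to 2.41), 3.52 (2.86 to 4.25) and 3.34 (2.66 to 4.08). In G1 cells alone the log2 ratios were 0.93, 2.66 and 2.25, which were smaller than over all cells but kept the direction. It made up 0.0868%, 0.257%, 1.05% and 1.11% of the *COX6B1* and *COX6B2* UMIs, while *COX6B1* itself was at 768, 788, 719 and 601 CPM. After each cell was thinned to 18000 UMIs, 1.07%, 3.44%, 10.9% and 10.6% of cells held a *COX6B2* UMI, against 1.93%, 5.66%, 24.1% and 23.7% before thinning. The exons of *COX6B2* overlap those of another listed gene. No cell type that lacks *COX6B2* was present to give a background share, and the share is therefore not read as one of expressing cells. *COX6A2*, an isoform of heart and muscle, had 0 UMIs in every library, which allows up to 0.100, 0.0910, 0.0933 and 0.118 CPM.

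*COX7B2*, the isoform of *COX7B*, was at 73.6, 107, 112 and 90.6 CPM, with log2 ratios of 0.54, 0.61 and 0.30. With *COX7B* lower at the same time, *COX7B2* made up 12.5%, 17.9%, 21.7% and 23.4% of the UMIs of the pair. The pair thus differed in opposite directions at 7-day. *COX7A1*, the muscle isoform, likewise had 0 UMIs in every library, *COX8C* and *COX4I2*, an isoform known from lung, had 2 UMIs each over the 4 libraries, and *COX7A2* was at 754 to 796 CPM throughout. Outside the naming patterns, *NDUFA4L2*, a paralog of *NDUFA4* known as a hypoxia-responsive gene, had 20, 25, 30 and 57 UMIs and was at 2.25 CPM at 7-day.

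**Figure D4:**
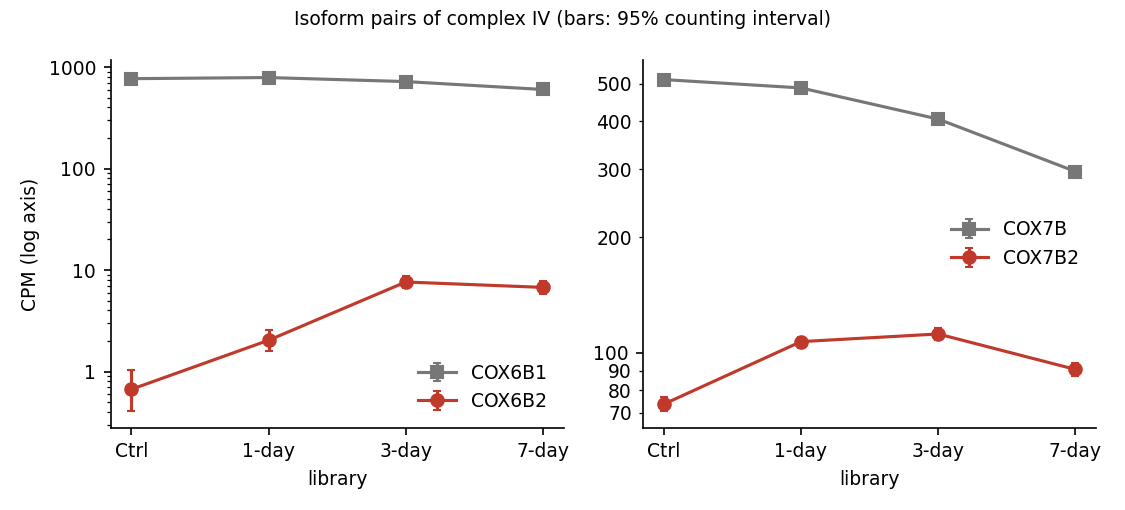
CPM of 2 isoform pairs of complex IV is plotted on a log axis against the library (points; bars, 95% counting intervals), *COX6B1* with *COX6B2* on the left and *COX7B* with *COX7B2* on the right. *COX6B2* goes from 0.667 CPM in Ctrl to 6.74 CPM at 7-day, and *COX7B* and *COX7B2* approach each other as *COX7B* goes from 513 to 296 CPM.

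Cell by cell, the share of MT- UMIs varied widely within each library. Its medians were 8.31%, 7.42%, 6.22% and 6.26%, and the 10th and 90th percentiles were 6.15% and 10.5% in Ctrl and 4.52% and 8.45% at 7-day. The cells of the libraries therefore overlapped, with lower medians in treated cells. Under the 10% limit the medians were 8.04%, 7.25%, 6.17% and 6.21%. The nuclear members took 2.27%, 2.40%, 2.15% and 1.94% of the UMIs that are not MT- in the median cell. UMIs of complex I genes made up 46.8% of the MT-ND and MT-CO UMIs in the median Ctrl cell and 42.9%, 43.2% and 40.5% in treated cells. The spread of this share was widest at 7-day (SD 5.41 over 569 cells, against 3.41 over 933 Ctrl cells).

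**Figure D5:**
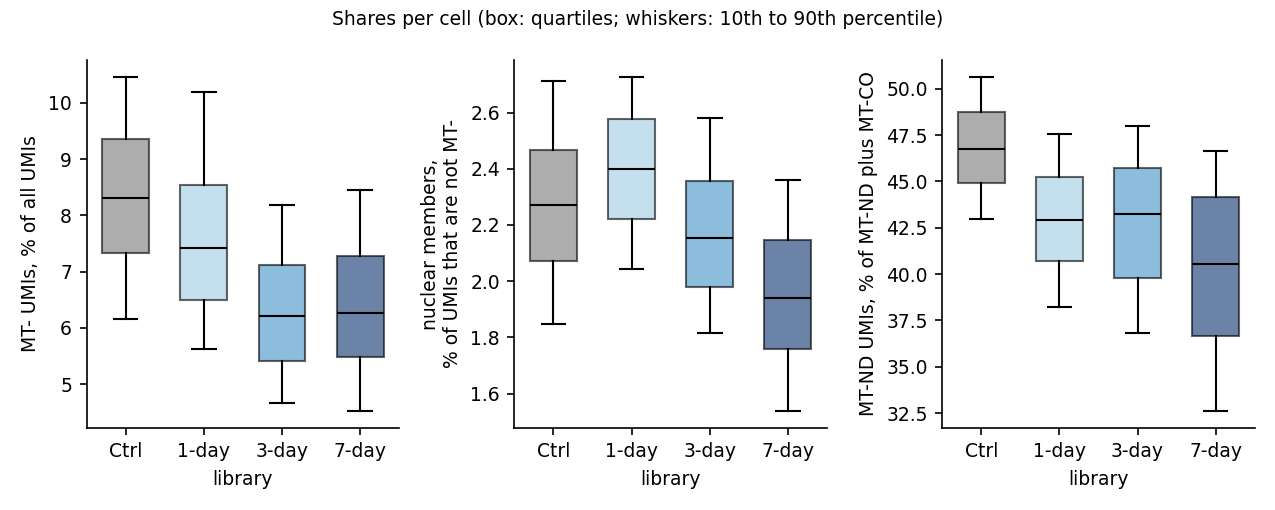
Box plots give, per library, the share of MT- UMIs in all UMIs of a cell (left), the share of nuclear members in the UMIs that are not MT- (middle) and the share of MT-ND in MT-ND plus MT-CO UMIs (right), all in percent (box, quartiles; line, median; whiskers, 10th to 90th percentile). The left medians go from 8.31% in Ctrl to 6.26% at 7-day and the right medians from 46.8% to 40.5%, and in both plots the 7-day box lies below the Ctrl box while the whiskers overlap.

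Over the cells of a library, the share of MT- UMIs and the share of nuclear members were at most weakly related. Spearman's rho between the 2 shares was -0.22, -0.13, -0.24 and -0.18 (933, 937, 705 and 569 cells), and between -0.23 and -0.13 under the 10% limit. These are descriptions over cells that share a library and a culture. After thinning, the 6 pairs of mitochondrially encoded complexes had rho between 0.43 and 0.77 over the libraries, the 6 pairs of nuclear complexes between -0.07 and 0.61, and the 16 mixed pairs between -0.34 and 0.04. The highest values were thus among complexes of the mitochondrial genome. The sums rest on unlike numbers of UMIs per cell. In Ctrl these were 1115, 116, 1269.8 and 186 for mitochondrial complexes I, III, IV and V. For nuclear complexes I to IV they were 272, 9.35, 155 and 233. The part of these numbers in the rho values was not tested.

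The lower mitochondrial share was also present within each cell cycle phase. In G1 cells the mitochondrially encoded sum had log2 ratios of -0.13, -0.46 and -0.44 at 1, 3 and 7 days, in S cells -0.17, -0.39 and -0.41, and in G2M cells -0.17, -0.34 and -0.33. The S group of the 1-day library held only 26 cells. The nuclear sum at 7-day was at -0.21 in G1, -0.20 in S and -0.19 in G2M cells, so that the nuclear difference had nearly the same size in each phase.

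Other genes of mitochondrial energy metabolism, which the naming patterns leave out, followed different courses. The 18 nuclear genes of the ATP synthase had medians of -0.06, -0.11 and -0.37 at 1, 3 and 7 days, close to those of the nuclear respiratory chain, with 6 lower and 0 higher at 7-day (12.0% and 24.7% of all genes). *ATP5G1*, a gene of its membrane ring, was lowest, at 1068, 712, 575 and 552 CPM (-0.95 at 7-day), and *ATP5E* highest (0.32). The 42 compared assembly factors, which help to build the complexes, were lowest at 1-day instead, with a median of -0.44, 16 lower and 1 higher (21.6% and 19.4% of all genes), and a median of -0.23 at 7-day. *LYRM7*, a factor that helps to insert the Rieske protein into complex III, was at 23.5, 8.95, 10.8 and 12.2 CPM, and *PET100*, a complex IV factor, at 74.1, 117, 116 and 98.1 CPM. The subunits of the respiratory chain and the factors that assemble them therefore had their lowest medians at different times. The 1-day library held 78.0% G1 cells against 25.8% in Ctrl. These lists and those that follow were not compared within a cell cycle phase, so the part of phase in their 1-day values was not tested.

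The messages of genes of mitochondrial import and of markers of mitochondrial mass were likewise lowest at 1-day, with a median of -0.51 over 22 genes and 12 lower (21.6% of all genes), and -0.28 at 7-day. Protein and mitochondrial mass were not measured. *TOMM40*, the channel of the outer membrane, was at 307, 135, 240 and 245 CPM. *CYC1*, cytochrome c1 of complex III, which stood in that list, was at 377, 253, 296 and 235 CPM, and had the lowest 7-day ratio of the list (-0.68). The 74 mitochondrial ribosomal protein genes had medians of -0.32, -0.22 and -0.28, and the 19 genes of mitochondrial transcription and RNA handling -0.37, -0.13 and -0.20. *TFAM*, which packages and transcribes mitochondrial DNA, was at 56.9, 36.6, 52.1 and 57.1 CPM, so that it was lowest at 1-day (-0.64), slightly below Ctrl at 3-day (-0.13) and within counting error of Ctrl at 7-day. The 16 genes of the tricarboxylic acid cycle had medians of -0.32, -0.31 and -0.14, and the 82 cytosolic ribosomal protein genes -0.02, 0.00 and -0.03. The 4 compared regulators of mitochondrial biogenesis had medians of -0.22, -0.02 and -0.09. *PPARGC1B*, a coactivator of mitochondrial gene programs, had 173, 33, 31 and 39 UMIs, and *PPARGC1A* had at most 4 UMIs in any library.

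Of the 67 nuclear members, 55 had a promoter in the RefSeq table. The NRF1 motif was found in 13 of these (23.6%), compared with 6.28% of all 27305 promoters and 13.9% of those of genes with a mean of at least 10 CPM. The YY1 motif AANATGGCG was found in 15 (27.3%), compared with 3.37% and 8.40%, and CCGGAAGT, the site of ETS factors such as GABP, in 8 (14.5%), compared with 4.44% and 10.4%. The 12 compared members with the NRF1 motif had a median 7-day log2 ratio of -0.15, with 2 lower, and the 40 without it -0.35, with 12 lower. Of all genes with a mean of at least 10 CPM, 12.0% were lower at 7-day. The difference between members with and without a motif was not tested. For the YY1 motif the medians were -0.38 over 15 members with it and -0.32 over 37 without it, and for the ETS motif -0.32 over 8 with it and -0.34 over 44 without it. At 1-day and 3-day the medians with and without the motif lay farther apart for YY1, at -0.13 against 0.03 and at -0.26 against -0.12, and closer together for NRF1, at 0.04 against 0.01 and at -0.06 against -0.15. Those for the ETS motif were 0.04 against 0.01 and -0.15 against -0.14. In the promoters printed above, *SDHA* has 4 NRF1 matches and *NDUFB4* has 3 stretches of it, *UQCRC1* has 1 NRF1 and 1 YY1 match and *NDUFA7* has 1 YY1 match. The printed promoters do not stand for all members far from Ctrl. Of members that reached larger ratios in size than *NDUFB4*, *COX6B2*, *COX7B*, *COX7B2* and *NDUFV1* have no match to these motifs. Others do, such as *NDUFS3* and *NDUFS7* with 1 YY1 match each. A match is a description of the letters only.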

How the data were processed

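OVCA420 cells were profiled by 10x Genomics 3′ single-cell RNA-seq in 4 libraries, 1 each for Ctrl, 1-day, 3-day and 7-day. The authors deposited raw UMI counts for each gene in each cell, with no normalization. The submitters' processing notes name Cell Ranger 2.0.1 and the builds GRCh38 and hg38. The lists hold 3372, 2601, 2253 and 2484 barcodes (10710 in all), but the matrices used here are incomplete and end in mid-line, so that only the cells listed first could be read (941, 945, 712 and 572, or 3170 in all). The other cells were not analysed here, and sums are not the full depth of a library. Cells with more than 200 genes, the study's limit, and at most 20% MT- UMIs were retained (10% as an alternative). Scrublet (scanpy 1.11.5) marked 40 cells (1.27%), which were retained except in 1 alternative. SCTransform normalization and regression, described for the study, were not applied.

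UMIs were summed per library and scaled to CPM, with exact Poisson 95% intervals for levels, exact conditional intervals for ratios and exact binomial intervals for shares (scipy 1.17.1, Python 3.11.15). Cell cycle phases used 43 S and 54 G2M genes. For shares of cells and for correlations between complexes, cells were thinned to 18000 UMIs, which left out 89, 37, 28 and 20 shallower cells. The correlations given between the share of MT- UMIs and that of nuclear members are without thinning. Gene positions are those of GENCODE 44 for GRCh38, and all 80 members matched. The calculation of log2 ratios and their intervals was tested on simulated Poisson counts, and the other steps were not.

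The text names all mitochondrially encoded members, the highest and lowest member of each nuclear complex at 1-day and 7-day with a mean of at least 10 CPM, preset core subunits, isoforms and paralogs, and the highest or lowest genes of other lists, apart from a preset gene that is not reported here. *COX6B1*, *NDUFS5*, *UQCRH*, *UQCRQ*, *PET100* and *MALAT1* were named partly after their values had been seen. The members and lists were chosen with earlier results of these data known. Alternatives were the 10% limit or none, doublets left out, median-of-ratios factors, another denominator, means over cells, G1 cells only, no minimum CPM and a smaller fold.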

Additional observations from a re-analysis of the deposited data

Results flagged for a closer look

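The following values were picked out because the 1-day and 7-day libraries lay on opposite sides of Ctrl, each beyond its counting interval. Both are compared with the same Ctrl library, and the difference between them was not tested. With the 1-day log2 ratio given first, the nuclear members as a sum passed from 0.08 to -0.19. By complex, the nuclear sums passed from 0.04 to -0.30 in complex I, from 0.02 to -0.10 in complex III and from 0.17 to -0.13 in complex IV, and the accessory subunits of complex I from 0.04 to -0.28. In complex III the 2 values were 0.07 and -0.21 with factors that centre the median gene. In G1 cells alone the 1-day value of complex III was -0.02, so that its change of side is not settled. The 1-day value of complex I was 0.01 in G1 cells alone. Of the 62 compared nuclear genes, 15 passed from above to below Ctrl and 1 the other way. The share of all genes with such a change of side was not counted, so these numbers are not read as a trait of the members. Of these 16 genes, 6 are among the genes chosen by the naming rule. Of those 6, *COX5B* passed from 0.15 to -0.45, *COX6A1* from 0.44 to -0.38, *COX7C* from 0.08 to -0.17, *NDUFA4* from 0.18 to -0.40 and *SDHC* from 0.23 to -0.16. *UQCRHL* passed the other way, from -0.33 to 0.49, and its reads cannot be told apart from those of *UQCRH* with certainty. The other 10, named here after their values were seen, were *NDUFA13* (from 0.20 to -0.63), *NDUFB3* (from 0.14 to -0.50), *NDUFB8* (from 0.22 to -0.39), *UQCRB* (from 0.23 to -0.31), *NDUFA9* (from 0.32 to -0.17), *COX6B1* (from 0.04 to -0.35), *COX8A* (from 0.11 to -0.17), *NDUFA11* (from 0.12 to -0.12), *NDUFB11* (from 0.19 to -0.08) and *NDUFA1* (from 0.07 to -0.11). In G1 cells alone *NDUFB11* was at 0.02 at 7-day, and at 1-day *COX6B1* was at 0.00, *COX7C* at 0.01 and *NDUFA1* at 0.03. For these genes the change of side is not settled. Exons of 15 nuclear members overlap those of another listed gene, among them *NDUFA13*, *NDUFB8*, *NDUFA9*, *COX8A* and *NDUFA11*, so these counts are uncertain. The mitochondrially encoded sums were on 1 side of Ctrl at both times.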

How the results depend on the processing

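No paired analysis was possible because there was a single library for every condition, and no replicate was left out for the same reason. Of 152 alternative values of the summed levels and counts, 85 stayed within the counting interval or within 1.5 times, 67 moved and 0 reversed. Of 1596 values of single genes, 1247 stayed, 349 moved and 0 reversed. Reversal was read only for ratios of at least 0.5 in size. Smaller ratios crossed 0 in 4 of 210 values of sums and 26 of 1596 values of genes, none of them over 0.08 in size as reported. Where a value moved, the cause was not tested, except that a smaller fold or no minimum admits more genes.

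With median-of-ratios factors the mitochondrially encoded sum was at -0.08, -0.47 and -0.49 at 1, 3 and 7 days and the nuclear sum at 0.13, -0.10 and -0.30. The 7-day sums of mitochondrial complexes I, III, IV and V were then -0.71, -0.65, -0.31 and -0.50, and those of nuclear complexes I to IV -0.41, -0.30, -0.21 and -0.24. With these factors 1 and 0 members were higher at 3-day and 7-day (19.6% and 20.3% of all genes). At 7-day 26 were lower (16.1% of all genes). In G1 cells alone the mitochondrially encoded sum was at -0.46 and -0.44 at 3-day and 7-day and the nuclear sum at 0.05 and -0.21 at 1-day and 7-day. The 7-day sums in G1 were -0.76, -0.76, -0.18 and -0.53 for mitochondrial complexes I, III, IV and V and -0.35, -0.28 and -0.11 for nuclear complexes I, II and IV. In G1 cells 1 member was higher at 1-day and 1 at 3-day (21.1% and 25.3% of all genes). At these times 1 and 6 were lower (17.8% and 16.0% of all genes). With UMIs that are not MT- as denominator the mitochondrially encoded sum was at -0.43 and -0.41 at 3-day and 7-day, and the nuclear sum at 0.07, -0.06 and -0.22. The 7-day mitochondrial complexes were at -0.63, -0.57, -0.23 and -0.42, and nuclear complexes I, III and IV at -0.33, -0.13 and -0.16. With that denominator 0 members were higher at 7-day (23.5% of all genes). With the 10% limit the mitochondrially encoded sum was at -0.34 and -0.32 at 3-day and 7-day, and the nuclear sum at 0.07, -0.04 and -0.21. The 7-day mitochondrial complexes were at -0.54, -0.48, -0.15 and -0.32, and nuclear complexes I and IV at -0.32 and -0.15. At that limit 1 and 0 members were higher at 1-day and 7-day (19.8% and 25.2% of all genes). As a mean over cells the nuclear sum at 3-day was -0.04, and 12 members were lower at 7-day (11.7% of all genes). With doublets left out 14 members were lower at 7-day (12.0% of all genes). Without a limit on MT- UMIs 0 members were higher at 7-day (24.7% of all genes). With no minimum CPM 2 were, and the share of all genes was not counted there. With a fold of 0.25, 11, 8 and 5 nuclear members were higher at 1, 3 and 7 days (30.3%, 36.2% and 39.3% of all genes). At these times 7, 18 and 36 were lower (35.1%, 25.6% and 23.4% of all genes).

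*SDHA* (0.50) lies at the limit of 0.5 itself, which is why the 7-day count of higher members was 0 under several alternatives. Only 29.6% of the listed cells were analysed. Median-of-ratios factors shifted the ratios of single genes by 0.04 to 0.05 at 1-day. The shift was -0.08 to -0.07 at 3-day and -0.11 to -0.10 at 7-day. Negative ratios at 1-day and positive ratios at 3-day and 7-day that are no larger than these shifts have no settled sign. In G1 cells alone some other small ratios changed side too. Levels near 1 CPM, as those of *COX6B2* in Ctrl, rest on 20 UMIs.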
